A study of Homo sapiens with 6 samples.

Results

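BRACHYURY (BRA, also called T) binding was compared between progenitors of endoderm and progenitors of mesoderm, with 2 antibodies used in both media. Both populations were derived from H9, an established human embryonic stem cell line, by 36 h of treatment with 20 ng/ml FGF2 and 10 µM LY294002, an inhibitor of PI3 kinase. FLyA medium added 100 ng/ml activin A and gives the endoderm progenitors, and FLyB medium added 10 ng/ml BMP4 and gives the mesoderm progenitors. BRA-bound chromatin was immunoprecipitated with an antibody from R&D Systems or with one from Santa Cruz, 1 library for each medium and antibody, which gives 4 of the 6 samples of the series. The other 2 are input chromatin, 1 per medium, and were not analysed here. The libraries all come from a single cell line, and nothing in the labels says whether those of one medium came from separate cultures. Peak lists hold no expression values, so the labelled cell types could not be checked against marker genes.

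BRA is a T-box transcription factor, a DNA-binding protein that switches genes on or off from promoters and more distant enhancers. It is a classical marker of the primitive streak, the structure through which cells leave the epiblast at gastrulation to form mesoderm and definitive endoderm, and embryos that lack it fail to make posterior mesoderm. Activin A acts through SMAD2 and SMAD3 and, at high dose, favours anterior streak and endoderm, whereas BMP4 acts through SMAD1 and its relatives and favours posterior streak and mesoderm. The comparison asks in which stretches of the genome BRA peaks were denser in one medium than in the other, by both antibodies.

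Each library was represented by a list of peaks, the places where the immunoprecipitated DNA was enriched. With the R&D Systems antibody there were 25864 peaks for FLyA and 23687 for FLyB, and with the Santa Cruz antibody 2436 and 3007. Every peak was 400 bp wide and had no height or score, so a strong and a weak site count alike, and the number of reads behind each list is not given. The study, which reports slightly fewer R&D Systems peaks, describes the Santa Cruz experiments as noisier and poorer in unique reads than those with that antibody. It reports a high correlation of binding between the antibodies in both media, but based its later work on the R&D Systems data alone. The readouts are thus not of equal quality. Of the Santa Cruz peaks, 31.9% in FLyA and 79.0% in FLyB lay on an R&D Systems peak of the same medium, so the antibodies share far fewer exact positions in FLyA. Positions are those of hg19, the build that the submitters' processing notes name, and chromosome 1 peaks reach 249240096. No annotation or genome of that build was used, so windows are given by position and no gene is assigned to them.

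The genome was divided into windows of 1 Mb, and the peaks of each list were counted by their midpoints and divided by the list's total. Of 2843 windows with any peak, 715 (25.1%) held at least 10 R&D Systems and 3 Santa Cruz peaks over both media and were compared. A further 1408 had 1 or 2 Santa Cruz peaks, 647 had none, and 73 had enough Santa Cruz but too few R&D Systems peaks. For the R&D Systems antibody the compared windows held 36.7% of the FLyA list and 42.8% of the FLyB list, and for Santa Cruz 53.7% and 61.8%.

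Both antibodies had the higher share of peaks in FLyA in 147 windows (20.6%, exact 95% interval 17.7 to 23.7%). Both had the higher share in FLyB in 290 windows (40.6%, 36.9 to 44.3%). In the remaining 278 windows (38.9%) the antibodies went opposite ways. The same direction was thus seen in 437 windows (61.1%, 57.4 to 64.7%). Counted singly, R&D Systems peaks were denser in FLyB in 437 windows and Santa Cruz peaks in 421, so much of the excess of FLyB windows is present in each antibody on its own. Among the windows denser in FLyB by R&D Systems, 66.4% were also denser there by Santa Cruz, against 58.9% of all windows. Among those denser in FLyA, the share was 52.9% against 41.1%. The intervals treat windows as independent and cover counting error only.

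The excess of FLyB over FLyA windows changed with how windows were admitted. When the peaks of both lists of an antibody were first scaled to weigh alike in the minimum, 145 windows favoured FLyA and 175 favoured FLyB, of 524. When 1 peak of each antibody sufficed, the order turned, with 699 windows for FLyA and 595 for FLyB, of 2188. With at least 5 Santa Cruz peaks it was 36 against 114, of 244. Which medium has more such windows therefore cannot be stated without the minimum. Windows with at least 10 R&D Systems peaks were also split by their number of Santa Cruz peaks. The share with the same direction was 59.3% at 1 peak (54.95 to 63.4%), 57.5% at 2 (53.0 to 61.9%) and 60.9% at 3 to 4 (56.4 to 65.4%). It was 63.0% at 5 to 7 (55.9 to 69.7%) and 54.5% in the 44 windows with 8 or more (38.8 to 69.6%). The intervals overlap throughout, and no share expected of unrelated antibodies is set beside them.

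**Figure D1:**
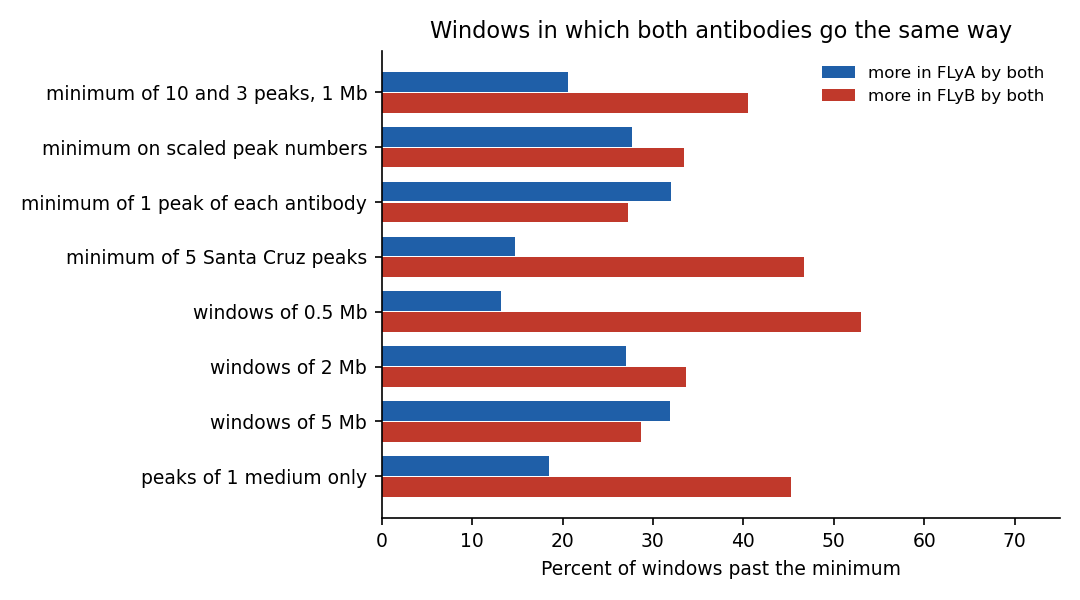
Percent of the windows past the minimum in which both antibodies hold the higher share of peaks in FLyA (blue) or in FLyB (red), under the stated minimum and under other minimums, window widths and peak selections. FLyB leads by 40.6% to 20.6% as reported, and FLyA leads with a minimum of 1 peak (31.9% to 27.2%) and with 5 Mb windows (31.9% to 28.7%).

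Across the 715 windows, the log2 ratios of shares (FLyA over FLyB, with 0.5 peaks added) of both antibodies were weakly related, with Pearson's r of 0.27 and Spearman's rho of 0.28. These are descriptions across windows, which share the libraries and the media and are not replicates. The spread was 0.62 (SD, n = 715 windows) for R&D Systems and 1.48 for Santa Cruz, whose windows hold few peaks. With 0.5 peaks added, R&D Systems shares differed by at least 2-fold in favour of FLyB in 60 windows, of which 44 (73.3%) went the same way by Santa Cruz, and in favour of FLyA in 24 windows, of which 16 (66.7%) did. Both antibodies reached 2-fold in 19 windows for FLyB and in 14 for FLyA. Whether these shares differ between the media, or from those of all windows, was not tested.

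**Figure D2:**
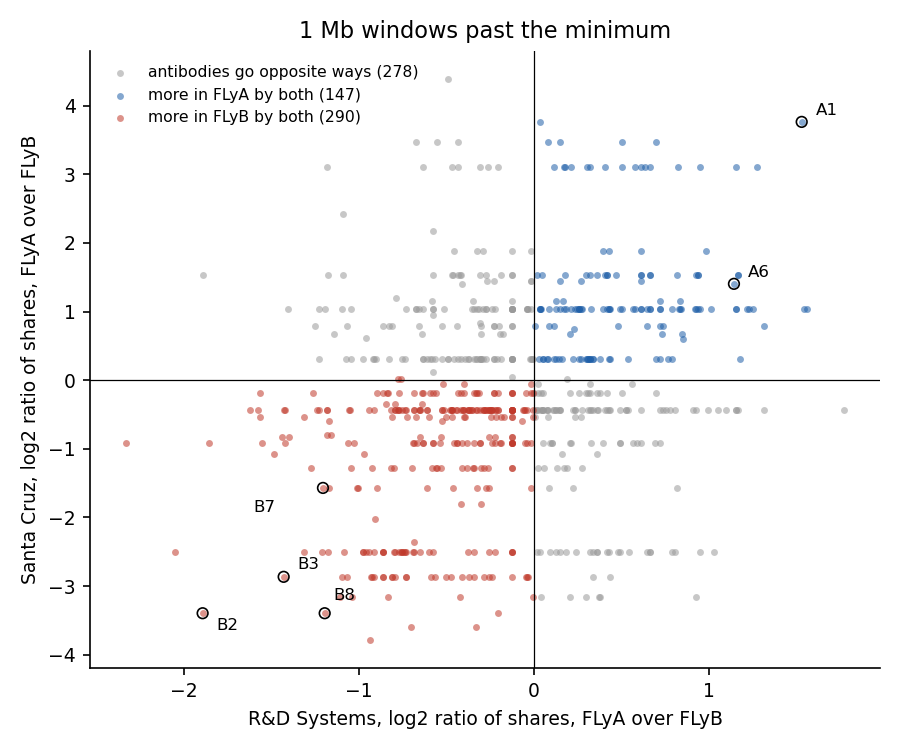
Each point is a 1 Mb window, placed by its log2 ratio of peak shares (FLyA over FLyB) for R&D Systems on the x axis and for Santa Cruz on the y axis. Circled windows are described in the text; the 147 blue and 290 red windows have the same direction by both antibodies, the 278 grey ones do not, and the horizontal bands are windows with the same small Santa Cruz peak numbers.

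No window passed the test across all windows (limma voom with antibody as a block, Benjamini-Hochberg adjusted p under 0.05), with 0 called in either direction (0.0% of 715) and a smallest adjusted p of 0.151. At an unadjusted p under 0.05 there were 59 windows higher in FLyA and 132 higher in FLyB. With 2 libraries a medium, an exact permutation test that ignores the pairing by antibody cannot go below p = 0.333. One that keeps the pairing has a higher floor. Of 15 other fits, 10 also gave no call. Windows of 2 Mb gave 13 calls, 5 for FLyA and 8 for FLyB, and in 12 of them both antibodies went the same way. That fit rests on 288 total degrees of freedom, against 4.19 in the 1 Mb fit, since its spread was pooled over windows almost completely. The windows described next are thus the most concordant by size, and none is established as different by the test.

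Windows denser in FLyB were ranked by the smaller of their log2 ratios, and the first 10 are labelled B1 to B10. The ranking chose them for their difference, so their counts are a description. R&D Systems shares in FLyB were 2.32 to 4.91 times those in FLyA. In 7 of the 10 the Santa Cruz FLyA list had no peak at all, so these passed the Santa Cruz minimum through FLyB alone. The intervals given for named windows show the counting error of each ratio, and since the windows were picked by these ratios they lend them no support. The Santa Cruz interval included 1 in all 10. When edges were moved by 0.5 Mb, up for B1 and down for B4, B7 and B8, the mean log2 ratio turned to FLyA, with values from 0.088 to 0.70.

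Window B2 (86 to 87 Mb of chromosome 16) held 12 FLyA and 42 FLyB peaks of the R&D Systems antibody, and 0 Santa Cruz peaks in FLyA and 6 in FLyB. Per 1000 peaks of the list, FLyB stood at 1.77 and FLyA at 0.464 by R&D Systems, and at 1.995 and 0 by Santa Cruz. The ranking fixed this order within each antibody. The R&D Systems share was 3.82 times as large in FLyB (exact 95% interval 1.98 to 7.97), and the lower bound by Santa Cruz was 0.954. All 6 Santa Cruz peaks lay on R&D Systems FLyB peaks. The R&D Systems FLyB peaks were spread over all 10 stretches of 100 kb, and 36 of the 42 overlapped no FLyA peak. By limma this window had an adjusted p of 0.151, and from 0.0130 to 0.998 over its alternatives. It passed with a minimum of 1 peak (0.0130), a fit whose 2188 total degrees of freedom come from a wholly pooled spread, and with a minimum of 5 Santa Cruz peaks (0.0429). It did not pass with the scaled minimum (0.0501) or without chromosome 17 (0.0976).

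Window B8 (55 to 56 Mb of chromosome 3) held 15 FLyA and 32 FLyB peaks of the R&D Systems antibody, and 0 and 6 Santa Cruz peaks. The FLyB share was 2.33 times as large by R&D Systems (1.22 to 4.63). Peaks were crowded here, with 12 of the 32 between 55600001 and 55700000. The 6 Santa Cruz peaks all lay on R&D Systems FLyB peaks (79.0% over the whole list). Window A5, directly to its right, is among those denser in FLyA.

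Window B7 (166 to 167 Mb of chromosome 6) held 13 FLyA and 28 FLyB peaks of the R&D Systems antibody, and 1 and 5 Santa Cruz peaks. Of the 28, 15 lay between 166600001 and 166700000, the densest 100 kb stretch among the named FLyB windows. The FLyB share was 2.35 times as large by R&D Systems (1.18 to 4.95). Of the 5 Santa Cruz FLyB peaks, 4 lay on R&D Systems FLyB peaks (79.0% over the whole list).

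Window B3 (28 to 29 Mb of chromosome 13) held 7 FLyA and 18 FLyB peaks of the R&D Systems antibody, and 0 and 4 Santa Cruz peaks. Here 7 of the 18 lay between 28500001 and 28600000. The FLyB share was 2.81 times as large by R&D Systems (1.12 to 7.95).

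Windows B5 and B6 had similar ratios on more peaks than most. B5 (49 to 50 Mb of chromosome 16) held 11 and 25 R&D Systems peaks, and 1 and 4 Santa Cruz peaks. B6 (139 to 140 Mb of chromosome 6) held 12 and 26, and 0 and 3. FLyB was the denser medium in both windows by both antibodies, with R&D Systems ratios of 2.48 (1.18 to 5.59) and 2.37 (1.15 to 5.15).

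Of the other 4, B1 (13 to 14 Mb of chromosome 8) had the largest R&D Systems ratio of the 10, 4.91, on 2 peaks in FLyA and 9 in FLyB, with an interval from 1.02 to 46.7. B4 (88 to 89 Mb of chromosome 16) held 5 and 12 R&D Systems peaks, B9 (227 to 228 Mb of chromosome 2) held 7 and 15, and B10 (126 to 127 Mb of chromosome 10) held 8 and 17. The intervals of B4, B9 and B10 included 1.

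**Figure D3:**
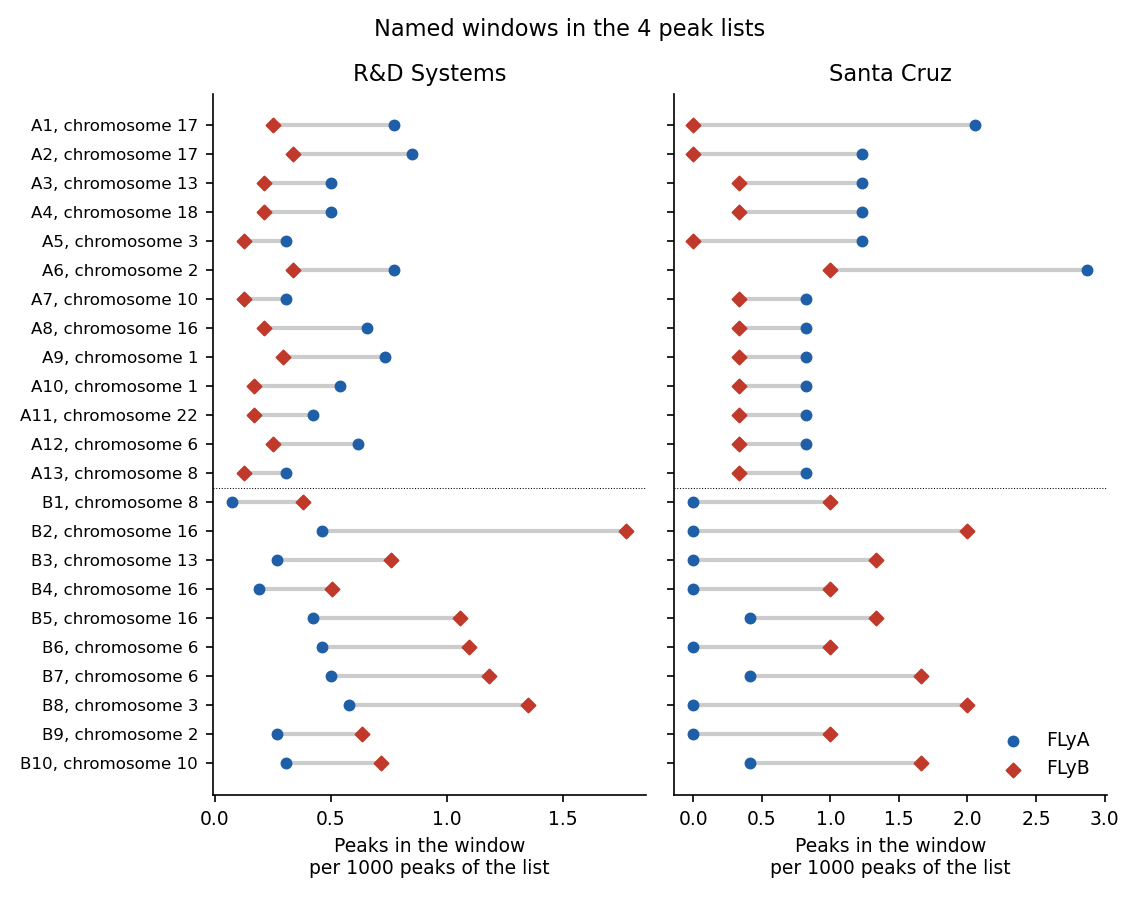
Peaks per 1000 peaks of the list in each named window, for R&D Systems (left) and Santa Cruz (right), with FLyA as blue circles, FLyB as red diamonds and 1 list per point. The windows above the dotted line were chosen as denser in FLyA and those below it as denser in FLyB; A7 to A13 have the same Santa Cruz values because each holds 2 FLyA peaks and 1 FLyB peak.

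Windows denser in FLyA were ranked in the same way, and 13 are labelled A1 to A13, since 7 of them tie at the last place with 2 Santa Cruz peaks in FLyA against 1 in FLyB. R&D Systems shares in FLyA were 2.29 to 3.21 times those in FLyB. In A1, A2 and A5 the Santa Cruz FLyB list had no peak, so these passed the Santa Cruz minimum through FLyA alone. The Santa Cruz difference came from at most 7 peaks in any list, and the next window outside the rule had a smaller log2 ratio of 1.01 against 1.04 for the last inside it. For FLyB these values were -1.11 outside and -1.17 inside. Edges moved by 0.5 Mb in one of the directions turned A3, A4, A5, A6, A8, A10 and A12 to FLyB, with mean log2 ratios from -0.85 to -0.0095.

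Window A1 (10 to 11 Mb of chromosome 17) held 20 FLyA and 6 FLyB peaks of the R&D Systems antibody, and 5 Santa Cruz peaks in FLyA and 0 in FLyB. Per 1000 peaks of the list, FLyA stood at 0.773 and FLyB at 0.253 by R&D Systems, and at 2.05 and 0 by Santa Cruz. This order within each antibody was fixed by the ranking. The R&D Systems ratio was 3.05 (1.18 to 9.29), and the lower bound by Santa Cruz was 1.13, in a window that passed the Santa Cruz minimum through FLyA alone. The intervals of both antibodies lay past 1 in 1 of the 147 FLyA windows, this one, and in 1 of the 290 FLyB windows. Of the 5 Santa Cruz peaks of A1, 1 lay on an R&D Systems FLyA peak, against 31.9% of the whole Santa Cruz FLyA list. Window A2 (14 to 15 Mb of the same chromosome) held 22 and 8 R&D Systems peaks, and 3 and 0 Santa Cruz peaks. Its R&D Systems ratio was 2.52 (1.08 to 6.54).

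Window A6 (133 to 134 Mb of chromosome 2) held 20 FLyA and 8 FLyB peaks of the R&D Systems antibody, and 7 and 3 Santa Cruz peaks, the most Santa Cruz peaks of any named window. The first 6 of the 7 Santa Cruz FLyA peaks fell within 25.5 kb. Of the 7, 1 lay on an R&D Systems FLyA peak (31.9% over the whole list), and 2 overlapped Santa Cruz FLyB peaks. The R&D Systems ratio was 2.29 (0.966 to 6.01).

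Windows A8 (17 to 18 Mb of chromosome 16), A9 (216 to 217 Mb of chromosome 1) and A10 (67 to 68 Mb of chromosome 1) held 17 and 5, 19 and 7, and 14 and 4 R&D Systems peaks in FLyA and FLyB. Their ratios were 3.11 (1.10 to 10.8), 2.49 (1.001 to 6.998) and 3.21 (1.01 to 13.4). Each held just 2 and 1 Santa Cruz peaks, none of the FLyA ones on an R&D Systems FLyA peak (31.9% over the whole list). For the other 7 windows the R&D Systems interval included 1. They are A3 (45 to 46 Mb of chromosome 13), A4 (4 to 5 Mb of chromosome 18), A5 (56 to 57 Mb of chromosome 3), A7 (61 to 62 Mb of chromosome 10), A11 (48 to 49 Mb of chromosome 22), A12 (90 to 91 Mb of chromosome 6) and A13 (63 to 64 Mb of chromosome 8).

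In how far the antibodies met at the same place, the named windows could not be told apart from their lists. In the FLyB windows, 36 of 42 Santa Cruz FLyB peaks (85.7%, 71.5 to 94.6%) lay on an R&D Systems FLyB peak, against 79.0% of the whole list. In the FLyA windows, 9 of 38 Santa Cruz FLyA peaks (23.7%, 11.4 to 40.2%) lay on an R&D Systems FLyA peak, against 31.9% of the whole list. Both intervals include the share of the whole list, so no trait of the named windows was resolved. They are wide and treat peaks as independent, so they do not exclude a difference either.

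**Figure D4:**
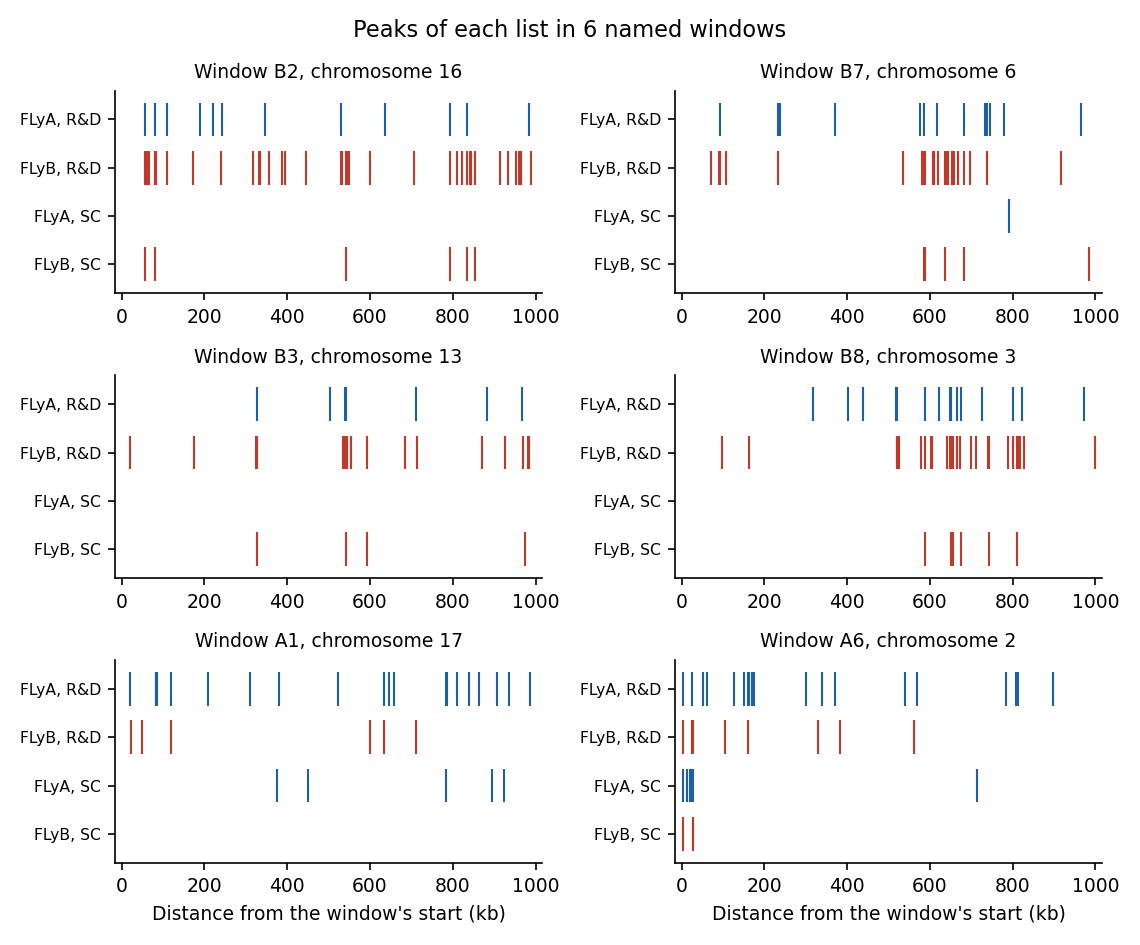
Peaks of the 4 lists (rows; SC stands for Santa Cruz) in 6 named windows, each tick a peak placed by its distance in kb from the start of the window, FLyA in blue and FLyB in red. In B2, B3, B7 and B8 the Santa Cruz FLyB ticks mostly stand under R&D Systems FLyB ticks. In A1, 1 of 5 Santa Cruz FLyA ticks stands under an R&D Systems FLyA tick. Over the whole lists, 79.0% of Santa Cruz FLyB peaks and 31.9% of FLyA peaks lay on R&D Systems peaks of the same medium.

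Over all windows of each direction, the 290 FLyB windows were rich in peaks, with a median of 28 R&D Systems peaks over both media against 20 in the 147 FLyA windows and 24.5 in the 278 opposite ones. Of the Santa Cruz peaks of the favoured medium, 85.3% of 989 in the FLyB windows and 33.5% of 409 in the FLyA windows lay on R&D Systems peaks. Over the whole lists these shares were 79.0% for FLyB and 31.9% for FLyA. In the opposite windows they were 80.8% and 39.4%, so the gap between the media is not particular to windows of either direction. FLyB windows had a neighbour of the same call in 88 cases (30.3%), with a longest run of 4 windows at 47 to 51 Mb of chromosome 20. FLyA windows had one in 11 cases (7.48%), with a longest run of 3 at 26 to 29 Mb of chromosome 17. The opposite windows, about as numerous as the FLyB ones, had one in 69 cases (24.8%), also with a longest run of 4, so neighbouring is not particular to FLyB windows. FLyA windows are fewer, and whether their number accounts for the lower share was not tested.

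Besides B2, 5 windows had stood out in an earlier look at these data for peaks of 1 medium only by R&D Systems, and 2 of them were past the minimum with the same direction by Santa Cruz. The window at 128 to 129 Mb of chromosome 11 held 9 and 31 R&D Systems peaks, and 1 and 3 Santa Cruz peaks. That at 75 to 76 Mb of chromosome 17 held 25 and 52, and 3 and 6. Both were denser in FLyB. The windows at 208 to 209 Mb of chromosome 2 (29 and 9 R&D Systems peaks, 2 and 0 Santa Cruz peaks) and at 70 to 71 Mb of chromosome 7 (28 and 10, 1 and 1) had the higher share in FLyA by both antibodies but too few Santa Cruz peaks for the comparison. At 204 to 205 Mb of chromosome 1 the antibodies went opposite ways, with 39 and 24 R&D Systems but 3 and 4 Santa Cruz peaks.

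At the scale of chromosomes, 23 had at least 10 peaks in every list. Both antibodies had the higher share in FLyA on 8 chromosomes (34.8%; 2, 3, 4, 5, 7, 12, 19 and X) and in FLyB on 5 (21.7%; 1, 8, 16, 20 and 22), and 10 went opposite ways. Taken singly, FLyA had the higher share on 12 of the 23 by R&D Systems and on 14 by Santa Cruz. Whether the antibodies agreed more often than these numbers alone would give was not tested. By limma on log2 shares, 0 chromosomes passed (0.0%), with 0 at an unadjusted p under 0.05 also and a smallest unadjusted p of 0.071.

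Chromosome 4 had the clearest excess in FLyA. It held 1309 FLyA and 1053 FLyB peaks of the R&D Systems antibody, and 163 and 137 Santa Cruz peaks. The share was 1.14 times as large in FLyA by R&D Systems (1.05 to 1.24) and 1.47 times by Santa Cruz (1.16 to 1.86). Both counting intervals excluded 1, but by limma the adjusted p of chromosome 4 was 0.756. The chromosomes described here and below were picked by these ratios, so their intervals lend them no support. Chromosome 22 lay at the other end, with 389 and 410 R&D Systems peaks and 18 and 43 Santa Cruz peaks. Its share was larger in FLyB by 1.15 times (0.999 to 1.33) and 1.94 times (1.09 to 3.56). On chromosome X the R&D Systems share was 1.15 times as large in FLyA (1.05 to 1.26), and the Santa Cruz ratio of 1.06 had an interval from 0.797 to 1.40.

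Among the chromosomes that went opposite ways, 18 had an R&D Systems ratio of 1.07 (0.963 to 1.20) and a Santa Cruz ratio of 0.606 (0.426 to 0.852). Chromosome 17 also went opposite ways by the antibodies, each past its counting error. It held 1393 FLyA and 1658 FLyB peaks of the R&D Systems antibody, but 205 Santa Cruz peaks in FLyA and 200 in FLyB. The FLyA share was 0.769 times that in FLyB by R&D Systems (0.716 to 0.827) and 1.27 times by Santa Cruz (1.04 to 1.55). The R&D Systems difference was largest at 40 to 50 Mb, with 226 and 346 peaks and a ratio of 0.598 (0.504 to 0.709), where the Santa Cruz ratio was 0.976 (0.604 to 1.57). The Santa Cruz difference was largest at 10 to 20 Mb, with 33 and 15 peaks and a ratio of 2.72 (1.43 to 5.38), the stretch that holds windows A1 and A2. In that stretch 7 of the 33 Santa Cruz FLyA peaks lay on R&D Systems FLyA peaks. The antibodies did not go opposite ways along the whole chromosome. At 0 to 10 Mb both favoured FLyB, with ratios of 0.723 (0.596 to 0.876) by R&D Systems and 0.535 (0.256 to 1.06) by Santa Cruz. At 50 to 60 Mb both ratios were above 1, at 1.02 (0.807 to 1.29) and 1.28 (0.712 to 2.32).

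**Figure D5:**
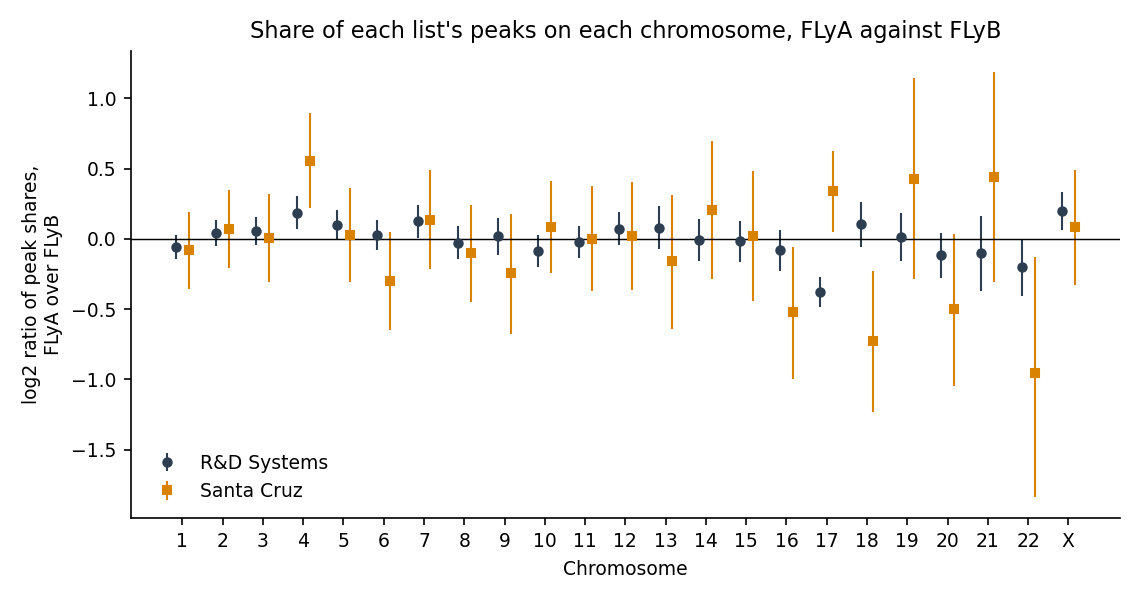
Log2 ratio of the share of peaks on each chromosome, FLyA over FLyB, for R&D Systems (dark circles) and Santa Cruz (orange squares), with exact 95% intervals for counting error. Both antibodies lie above 0 on chromosome 4 and below it on chromosome 22, and they lie on opposite sides of 0 on chromosome 17, where both intervals exclude it.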

How the data were processed

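BRA ChIP-seq libraries of FLyA- and FLyB-treated H9 cells were read on an Illumina Genome Analyzer II, and the authors called peaks with MACS. The submitters' processing notes name Bowtie 0.12.7 and hg19. The deposited lists hold positions alone, with no score, signal or p-value. The Santa Cruz lists name a threshold of 1e-12 in their track lines, and for the R&D Systems antibody it is not given in the sources used here. Which input each list was called against is also not given, so the lists of a medium may share 1 input.

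Peaks were assigned to 1 Mb windows by midpoint with Python 3.11.15, pandas 2.3.3 and NumPy 2.4.6. Overlap meant at least 1 bp. Exact intervals for shares (Clopper-Pearson) and for ratios of shares came from SciPy 1.17.1. They cover counting error only, as if neighbouring peaks were independent. Windows and chromosomes were tested with limma 3.58.1 in R 4.3.3, with antibody as a block because each antibody was used in both media, and the code was tested on simulated data. The labels carry no replicate numbers, and there is 1 library for each medium and antibody. The p-values of the blocked fits rest on how far the antibodies disagree about the media, pooled over windows or chromosomes. They do not measure the spread between replicate libraries.

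The comparison, windows and lists were chosen with earlier results of these data known. Named windows were the 10 per medium with the largest smaller-of-both log2 ratio (0.5 peaks added); keeping all 7 FLyA windows tied at the last place, hence 13, was decided after their values were seen. The design also set out peaks near gene lists and T-box motifs, which need an hg19 annotation or genome and were not run. Alternatives covered window width and edges, minimums, pseudocount, weights, merged or medium-specific peaks, autosomes and leaving out each list, and 3 were added after seeing the data: the scaled minimum, leaving out chromosome 17, and leaving out 42 to 43 Mb of chromosome 10.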

Additional observations from a re-analysis of the deposited data

Results flagged for a closer look

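On chromosome 17 the antibodies gave opposite differences between the same media. The share of peaks in FLyA was 0.769 times that in FLyB by R&D Systems and 1.27 times by Santa Cruz, with counting intervals on either side of 1. The difference between the antibodies was not tested, as there is 1 library for each medium and antibody. Of the Santa Cruz peaks on this chromosome, 30.7% in FLyA and 80.5% in FLyB lay on R&D Systems peaks of the same medium, close to 31.9% and 79.0% over all chromosomes.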

How the results depend on the processing

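Numbers of windows are given for FLyA first and FLyB second. By both antibodies they were 54 and 217 at 0.5 Mb (66.3% the same way), 233 and 290 at 2 Mb, 180 and 162 at 5 Mb, 699 and 595 with a minimum of 1 peak, 36 and 114 with 5 Santa Cruz peaks, and 145 and 175 with the scaled minimum. With 1 antibody alone they were 278 to 294 and 421 to 437, and for chromosomes 12 to 14 and 9 to 11. Moved edges, merged peaks, autosomes and peaks of 1 medium stayed within 1.5 times of the reported counts.

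By limma, calls came with 2 Mb windows (5 and 8), a minimum of 1 peak (1 and 1), 5 Santa Cruz peaks (0 and 1), and on leaving out 1 list (0 to 73 for FLyA, 0 for FLyB). The 73 came without the FLyA R&D Systems list and 1 without the FLyB R&D Systems list. These fits have a lone library in a medium, assumed to vary like the others, and 715 total degrees of freedom. Without the replicate block, which pairs the lists of an antibody, there were 0 calls and 57 windows at an unadjusted p under 0.05. No chromosome passed in any fit.

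Named windows depended on where the edges fell: of 46 mean log2 ratios (FLyA over FLyB) with edges moved by 0.5 Mb, 11 reversed. Several others shrank severalfold, such as A5 moved up, from 2.13 to 0.29, and B3 moved down, from -2.15 to -0.63. Moved up, A3 became -0.0095, A4 -0.17, A6 -0.30 and B1 0.23. Moved down, A5 became -0.85, A8 -0.29, A10 -0.015, A12 -0.093, B4 0.70, B7 0.088 and B8 0.19. On leaving out 1 list, the fitted values of A7 and A13 ran from -0.065, without the FLyA Santa Cruz list, to 2.64. These fits mix medium with antibody. Gene lists and T-box motifs were not run. Read numbers are not given, and few Santa Cruz peaks limit each window.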
